A study of Mus musculus with 41 samples.

Results

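Nonsense-mediated decay (NMD) is the pathway that removes mRNAs on which translation stops too early, and the 9 genes described here encode its core factors: Upf1, Upf2, Upf3a, Upf3b, Smg1, Smg5, Smg6, Smg8 and Smg9. They were chosen by symbol, and all 9 were found, among 55385 genes with RNA values and 22438 genes with ribosome footprints. In the RNA values they have 45 transcripts of 142552. All 9 genes passed the filter on low counts in every comparison, whereas 22 or fewer of the 45 transcripts did.

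The study removed the ribosome rescue factors Hbs1l and Pelo or the NMD factor Upf2 in mice and asked how translation changed. Ribosome footprints, the pieces of mRNA that ribosomes protect from nuclease, were counted on coding sequences in 30 libraries, and polyA-selected RNA was sequenced in 11. The 41 libraries form 14 groups of 3, apart from the RNA of Pelo-deficient fibroblasts with 2.

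Whole embryos at E8.5 were C57BL/6NJ, either Hbs1l -/- or wild type, with embryos pooled in each library. Cerebella at P14 were C57BL/6J, either Atoh-Cre;Hbs1l cKO or Atoh-Cre;Hbs1l +/+, so that mutant and control mice both carried the Cre, which acts in granule cell precursors and not in most other cells of the cerebellum. Mouse embryonic fibroblasts (MEFs) were C57BL/6, all carried CAG-Cre ER and all were given tamoxifen. They were Hbs1l cKO, Pelo cKO or Upf2 cKO, or CAG-Cre ER alone as controls. The labels number each group's replicates, and p values measure the spread between these libraries.

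In mammals UPF1 is an RNA helicase that joins a ribosome terminating too early, and UPF2 and UPF3B link it to the exon junction complexes that splicing leaves on the mRNA. The kinase SMG1, held in check by SMG8 and SMG9, then phosphorylates UPF1, and the phosphorylated protein recruits SMG5 and the endonuclease SMG6, which cuts the mRNA. Several mRNAs for these factors are known to be targets of NMD themselves, so that the pathway limits its own components.

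**Figure D1:**
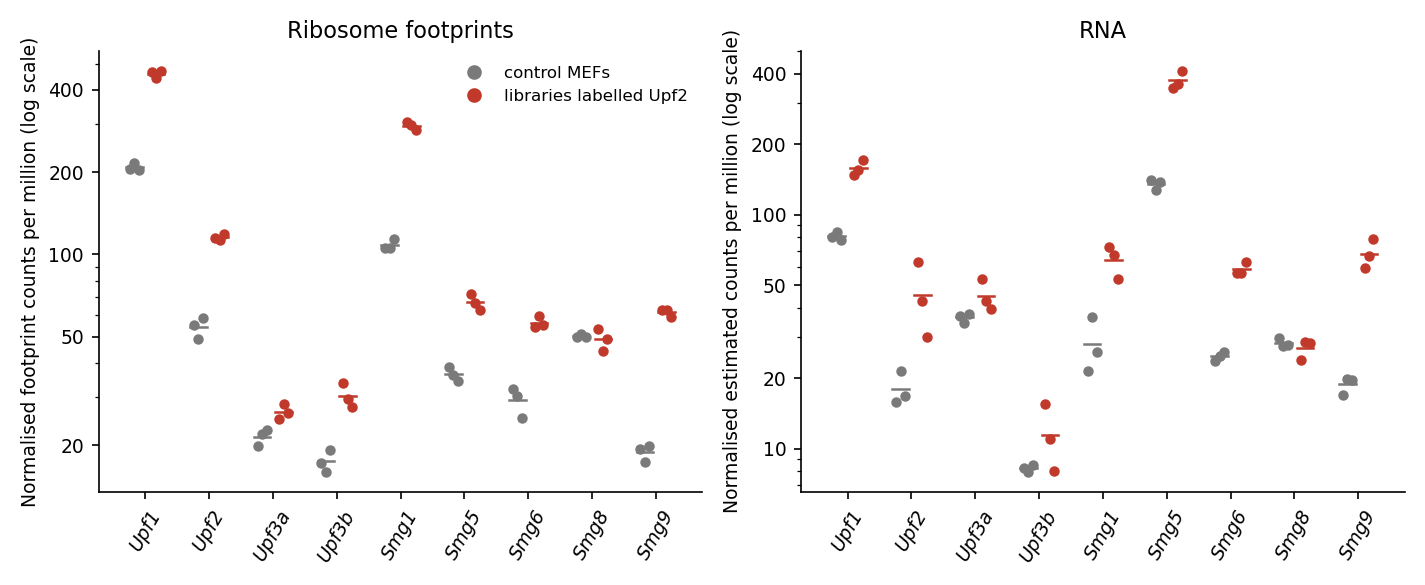
CPM (counts scaled to library size, log axis) of the 9 NMD factor genes in MEF footprints (left) and MEF RNA (right). Each point is 1 library, bars mark the mean of the controls and of the libraries labelled Upf2. In footprints the 3 libraries labelled Upf2 lie above the 3 controls for 8 genes, as they do for 27.5% of all 12166 genes tested, and for Smg8 the groups overlap.

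The targeted genes were read first. Hbs1l footprints were 2.77 to 9.07 CPM in Hbs1l -/- embryos and 50.6 or more in wild-type embryos, 12.8 to 15.7 against 37.8 to 44.7 in cerebellum, and 1.51 to 2.59 against 32.6 to 39.5 in MEFs. Pelo footprints were 2.00 to 2.98 CPM in Pelo cKO MEFs and 31.8 to 38.4 in their controls. Upf2 went the other way: its footprints were 113 to 119 CPM in the MEFs labelled Upf2 cKO and 49.2 to 58.3 in controls. The count of the targeted gene therefore goes against that label, the values give reads per gene or transcript and not per exon, and the exons that the Upf2 allele removes are not given in the sources used here. These libraries are called the libraries labelled Upf2 throughout. Of 6 genes known as NMD targets (Gas5, Gadd45a, Gadd45b, Snhg1, Snhg12 and Snhg15), all 6 were higher in their RNA, by 1.63 to 3.70 on the log2 scale. The 2 that could be tested in footprints, Gadd45a and Gadd45b, were higher by 1.03 and 1.27. Each of these rises passed edgeR's test. Of all genes tested in these libraries, 13.2% passed and were higher in RNA, and 22.3% in footprints. The 6 genes were chosen with earlier results of these data known, so that the outcome was not open and is no independent check of the label.

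Library totals were 2634480 to 7298812 footprints in embryos, 10919139 to 22591768 in cerebella, 5782990 to 25607974 in MEFs, and 22713643 to 86425762 estimated counts for RNA. Markers of granule cells, Purkinje cells and glia were present in every cerebellum library, and fibroblast markers in every MEF library. The control MEF footprint libraries of the 3 mutant pools were not independent: those with the same number differed by a chi-square of only 1.10 to 1.19 per gene, where 1 is pure counting noise, against 4.07 to 11.7 for different numbers, so that the 3 footprint comparisons in MEFs share their controls. The 3 RNA comparisons share their controls as well.

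Transcripts of the same gene differed in their values for Upf2, Smg5 and Smg6, and the sequences that tell them apart are shown here, from the Gencode M21 annotation of GRCm38 (mm10). Upf2 lies on the plus strand at chr2:5951469-6056703. Its full transcript Upf2-201 has 22 exons. Upf2-202 has 11 exons, and its annotated model begins 57 bases into exon 12 of Upf2-201, after 2234 of the 3807 coding bases, so that it holds only the later part of the gene and its coding start is marked as incomplete. Exons 17 and 19 of Upf2-201 begin 3 bases earlier than in Upf2-202, which gives the full transcript 3 extra bases at each of these junctions, in capitals. The last line gives the first 60 bases of Upf2-202, at chr2:6023339-6023398.
Upf2-201 into exon 17: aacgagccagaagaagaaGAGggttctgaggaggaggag
Upf2-202 same junction: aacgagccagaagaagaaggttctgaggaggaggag
Upf2-201 into exon 19: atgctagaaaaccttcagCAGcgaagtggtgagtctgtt
Upf2-202 same junction: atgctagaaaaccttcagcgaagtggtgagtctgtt
Upf2-202 start: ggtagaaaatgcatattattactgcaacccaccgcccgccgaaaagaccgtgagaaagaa

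Smg5 (chr3:88336260-88362338, plus strand) and Smg6 (chr11:74925823-75164448, plus strand) each have a transcript that the annotation names as a target of nonsense-mediated decay, and of the 45 transcripts 3 carry this type (Smg5-202, Smg6-202 and Smg1-204). In Smg5-202, exon 8 begins 31 bases upstream of its place in Smg5-201, and the stop codon that results, in capitals, lies 434 bases before the last exon junction. Smg6-202 skips exon 9, of 62 bases, and its stop codon lies 1379 bases before the last junction. The full transcripts are shown over the same bases for comparison. An early stop followed by a junction downstream is the textbook feature by which NMD recognises an mRNA.
Smg5-202 stop: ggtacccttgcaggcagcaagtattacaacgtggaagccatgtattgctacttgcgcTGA
Smg5-201 same place: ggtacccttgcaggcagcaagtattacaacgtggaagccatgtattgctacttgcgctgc
Smg6-202 stop: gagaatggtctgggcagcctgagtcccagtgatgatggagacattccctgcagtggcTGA
Smg6-201 same place: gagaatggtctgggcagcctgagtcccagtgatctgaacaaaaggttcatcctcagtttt

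The levels of the 9 mRNAs in control MEFs were compared on the length-scaled TPM (each transcript as its part of a fixed total), summed per gene. Smg5 was the most abundant at 33.9 ± 2.81 TPM (SD, n = 3), followed by Upf3a at 19.9 ± 1.85, Upf1 at 18.3 ± 2.00, Smg8 at 9.87 ± 0.583 and Smg9 at 8.85 ± 1.44. Upf3b at 5.42 ± 0.742, Smg6 at 5.24 ± 0.695, Upf2 at 4.65 ± 0.911 and Smg1 at 2.56 ± 0.742 were lower. The ranges of neighbours in this order overlapped for Upf3a and Upf1, Smg8 and Smg9, Upf3b and Smg6, and Smg6 and Upf2, and were separate for the other neighbours.

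The order of footprints per length was different. On CPM per kilobase of coding sequence, Upf1 had the highest mean in every tissue, at 59.8 to 61.2 in control MEFs (the pool of the libraries labelled Upf2), 74.4 to 78.6 in wild-type embryos and 31.7 to 45.3 in control cerebella, where Upf3a overlapped it at 26.2 to 35.7. Smg5, first in MEF RNA, was at 11.2 to 12.5 in the same MEFs, below Upf3a at 15.4 to 17.8. At the low end, Smg6 was at 5.81 to 7.33 in MEFs and 6.47 to 9.06 in cerebella, and Smg1, which encodes the longest protein of the group, at 8.13 to 12.1 in embryos, where it overlapped Smg6 at 8.91 to 11.4. Smg8 was at 29.6 to 35.0 in embryos, second to Upf1, and at 11.6 to 12.6 in cerebella. Embryos, cerebella and MEFs also differ in strain and age, which cannot be told apart from tissue.

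**Figure D2:**
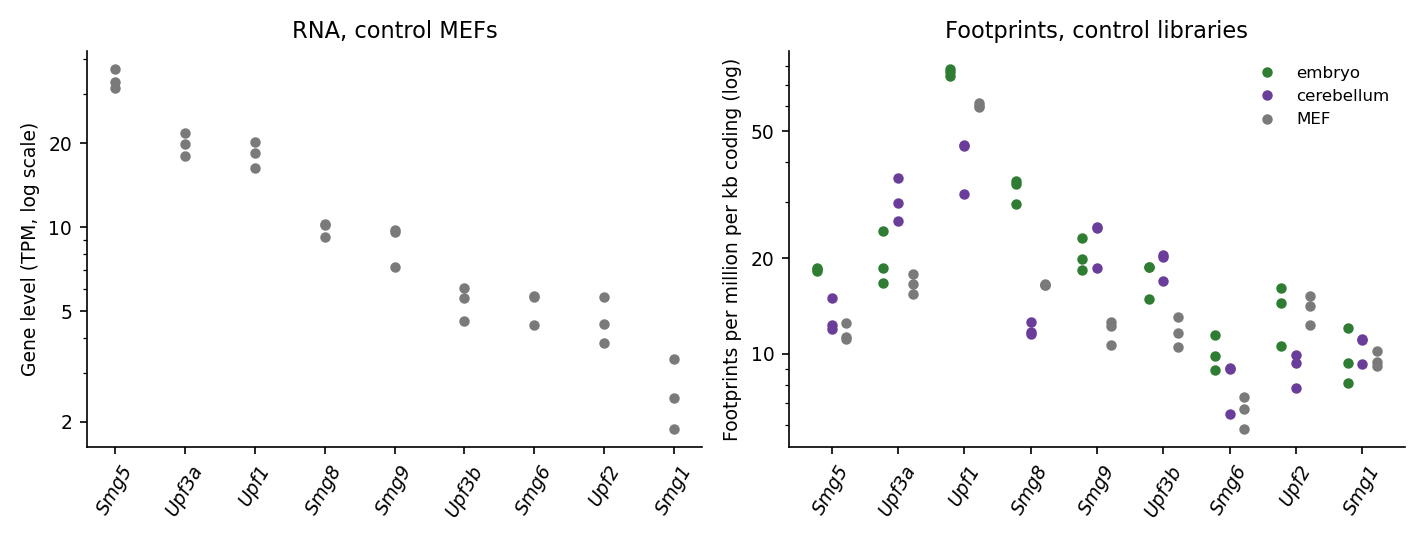
Left, TPM of the 9 mRNAs in the 3 control MEF RNA libraries, in order of their mean (log axis). Right, footprint CPM per kilobase of coding sequence in control embryos, cerebella and MEFs (log axis), where Upf1 has the highest mean in each tissue, Upf3a overlaps it in cerebellum, and Smg5, first in RNA, is at 11.2 to 12.5 in MEFs.

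In the libraries labelled Upf2, footprints on 8 of the 9 members rose and none fell. Smg9, Smg1, Upf1 and Upf2 rose more than 2-fold, Smg6, Smg5 and Upf3b rose by less than 2-fold, Upf3a rose slightly, and Smg8 did not pass the test. Over all 12166 genes tested, 43.4% passed an adjusted p of 0.05 (edgeR's quasi-likelihood test, Benjamini-Hochberg over all genes), and 22.3% passed it and were higher. The median log2 fold change of the 9 members was 0.95, and that of all genes was 0.00.

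Among the UPF genes, Upf1 (chr8:70331525-70353278, minus strand), the helicase, had 464, 444 and 470 CPM of footprints in the libraries labelled Upf2 and 206, 216 and 203 in controls. The groups were far apart, with a log2 fold change of 1.14 (SE 0.06, adjusted p = 4.3e-07 by edgeR), the member with the tenth smallest p of all genes. Upf2, which bridges UPF1 and UPF3B, had 115, 113 and 119 CPM against 54.9, 49.2 and 58.3. It rose by 1.09 (SE 0.08, adjusted p = 3.1e-06 by edgeR), in libraries whose label says that the gene was deleted. Upf3b (chrX:37091678-37110322, minus strand), the main link to the exon junction complex, had 33.9, 29.6 and 27.7 CPM against 17.2, 16.0 and 19.2, a rise of 0.80 (SE 0.11, adjusted p = 0.00019 by edgeR). Its paralogue Upf3a (chr8:13785615-13799193, plus strand) had 24.9, 28.3 and 26.3 CPM against 19.8, 22 and 22.8. For Upf3a the groups were separate but close, the rise was 0.31 (SE 0.10, adjusted p = 0.028 by edgeR), and it lost its call with DESeq2 (adjusted p = 0.085) and without 1 of 3 single libraries (replicates 2 or 3 of those labelled Upf2, or control replicate 1; adjusted p up to 0.13).

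Of the kinase complex, Smg1 (chr7:118131308-118243670, minus strand) had 304, 297 and 285 CPM of footprints in the libraries labelled Upf2 and 105, 106 and 114 in controls. It rose by 1.45 on the log2 scale (SE 0.06, adjusted p = 1.7e-07 by edgeR), with the fourth smallest p of all genes. Smg9 (chr7:24399619-24422778, plus strand) rose most of the members, from 19.4, 17.4 and 19.8 CPM to 62.8, 62.6 and 59, which is 3.26-fold (log2 1.71, SE 0.08, adjusted p = 3.5e-07 by edgeR). Smg8 (chr11:87077732-87086774, minus strand), whose protein binds SMG9 in the same complex, had 53.2, 44.4 and 49.1 CPM against 49.8, 51.1 and 49.6. Its groups overlapped, and the log2 fold change was -0.05 with a 95% interval of -0.22 to 0.13, so that a rise like that of Smg9 lies outside the interval.

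Of the factors that act after UPF1 is phosphorylated, Smg5, the adaptor, had 71.6, 66.5 and 62.4 CPM of footprints in the libraries labelled Upf2 and 38.7, 36.1 and 34.4 in controls, a rise of 0.87 (SE 0.08, adjusted p = 1.4e-05 by edgeR). Smg6, the endonuclease, had 54.0, 59.4 and 55.0 CPM against 32.1, 30.3 and 25.2, a rise of 0.95 (SE 0.10, adjusted p = 2.5e-05 by edgeR). Both groups were well separated for each gene.

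In the RNA of the libraries labelled Upf2 Smg9 again came first, but the order of the other members differed. Of the 9 members 6 rose (Upf1, Upf2, Smg1, Smg5, Smg6 and Smg9) and none fell, where 20% of all 15983 genes passed the test and 13.2% passed and were higher. The members' median log2 fold change was 1.2 and that of all genes was -0.02. Smg9 rose most, from 16.9, 19.8 and 19.7 CPM to 59, 66.9 and 78.9, a log2 fold change of 1.86 (SE 0.14, adjusted p = 1.3e-05 by edgeR). Smg5 rose from 141, 127 and 138 CPM to 349, 364 and 412, by 1.47 (SE 0.11, adjusted p = 1.2e-05 by edgeR). Smg6 rose from 23.6, 25 and 26.0 CPM to 56.4, 56.5 and 63.0, by 1.24 (SE 0.11, adjusted p = 4.6e-05 by edgeR). Upf1 rose from 80.6, 84.7 and 78.1 CPM to 148, 155 and 171, by 0.96 (SE 0.10, adjusted p = 0.00013 by edgeR). For these 4 mRNAs the groups were far apart and the libraries of each group close together.

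For Upf2, Smg1, Upf3b and Upf3a the spread within the libraries labelled Upf2 was wider in RNA than in footprints. Upf2 RNA was 63.0, 42.6 and 30.0 CPM in these libraries and 15.9, 21.5 and 16.8 in controls. The groups did not overlap, as for 39.9% of all genes. The rise was 1.33 on the log2 scale (SE 0.24, adjusted p = 0.0033 by edgeR), although the highest library labelled Upf2 had over 2-fold the level of the lowest. Smg1 was 72.9, 67.0 and 52.9 CPM against 21.4, 36.6 and 25.8, a rise of 1.2 (SE 0.19, adjusted p = 0.0017 by edgeR). Upf3b was 15.5, 11 and 8.0 CPM against 8.24, 7.95 and 8.55, and its groups overlapped (log2 fold change 0.47, SE 0.21, adjusted p = 0.14 by edgeR), but it passed the test without replicate 3 of the libraries labelled Upf2 (0.69, adjusted p = 0.025). Upf3a was 53.1, 42.6 and 39.5 CPM against 37.0, 34.5 and 37.7, with separate groups and a log2 fold change of 0.31 (SE 0.13, adjusted p = 0.13 by edgeR). In the library where Upf2 was highest, replicate 1, Upf3b, Upf3a and Smg1 were highest too, and in replicate 3 all 4 were lowest. Smg8 was 23.9, 28.5 and 28.2 CPM against 29.6, 27.5 and 27.7, and its groups overlapped in RNA as in footprints (log2 fold change -0.07, 95% interval -0.34 to 0.20).

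Other values differed between the libraries labelled Upf2 and controls. The summed footprints of 6 fibroblast markers were 24367 to 26552 CPM against 17701 to 17905, and those of 4 macrophage markers 68.4 to 80.7 against 41.8 to 58.7. Lower were 4 endothelial markers, at 50.5 to 58.4 against 67.3 to 81.7 CPM, and 3 neuron markers, at 57.9 to 63.5 against 81.6 to 88.6. Granule cell markers, with up to 2 of 4 at 0, were at 13.3 to 25.68 against 25.70 to 32.8 CPM. No fibroblast or macrophage marker was at 0. In RNA the macrophage sums overlapped (17.8 to 26.0 against 17.3 to 27.5 CPM), as did the fibroblast sums (3825 to 4876 against 3497 to 5882), and the neuron sums were lower (66.4 to 82.0 against 88.0 to 124). Transcripts annotated as retained introns made up 1.64% to 1.69% of the estimated counts against 1.34% to 1.48%, and those annotated as NMD targets 2.73% to 2.93% against 1.91% to 2.11%. The part of these differences in the members' changes was not tested. In bulk samples fewer cells of a type and less RNA per cell cannot be told apart.

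Transcript by transcript, 22 of the 45 member transcripts passed the filter in the libraries labelled Upf2 and their controls. Of these, 8 rose and none fell, where 5.35% of all 40620 transcripts tested were called, and the tested member transcripts had a median log2 fold change of 0.81, against 0.00 over all. The estimated counts come from assigning reads to transcripts that share most of their exons, so that a pair of transcripts of 1 gene is not counted independently. Leaving out 1 library in turn gave 5 to 7 calls. Smg5-202 was lost without any 1 library labelled Upf2 or without control replicate 2 (adjusted p up to 0.068 by edgeR), Upf1-201 without any 1 library but control replicate 2 (up to 0.081) and Smg6-201 without replicate 2 of either group (up to 0.063), while Upf2-202, Smg5-201, Smg6-202, Smg9-201 and Upf1-202 were called in each of these 6 fits.

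Upf2 itself was split unevenly between its transcripts. The full Upf2-201 was at 9.65, 6.83 and 4.04 TPM in the libraries labelled Upf2 and at 3.04, 5.09 and 3.92 TPM in controls. These groups overlapped, and its log2 fold change of 0.71 did not pass (SE 0.28, adjusted p = 0.21 by edgeR). The shorter Upf2-202, which starts within exon 12, was at 10.7, 7.42 and 4.45 TPM against 0.485, 0.534 and 0.546. It was more than 10-fold higher, with a log2 fold change of 3.77 (SE 0.32, adjusted p = 0.0033 by edgeR), the largest of the 8. Upf2-203, a short model of 544 bases with 4 exons and no coding sequence, was at 0.122 to 0.315 TPM against 0 to 0.302.

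As a share of Upf2 TPM, Upf2-202 made up 51.7%, 51.5% and 51.7% in the 3 libraries labelled Upf2, nearly the same share in each although the total differed over 2-fold. In controls it made up 12.7%, 9.49% and 12.1%, in Hbs1l cKO MEFs 0, 8.35% and 11.1%, and in Pelo cKO MEFs 0 and 9.89%. Only in the libraries labelled Upf2 did the share pass 13%. Upf2-202 differs from Upf2-201 both in its start and at the junctions into exons 17 and 19. Values per transcript do not show which of these places drew the reads to Upf2-202. They also cannot tell apart a transcript that begins within exon 12, a longer mRNA with these junctions, and the remaining exons of a deleted allele.

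For Smg5 and Smg6, both the full transcript and the annotated NMD target rose, with the larger log2 fold change for the NMD target. Smg5-202, with the early stop shown above, went from 0.921, 1.00 and 0.322 TPM to 7.29, 8.75 and 7.19 in the libraries labelled Upf2, a log2 fold change of 3.35 (SE 0.46, adjusted p = 0.015 by edgeR). The full Smg5-201 went from 27.7, 29.7 and 31.8 TPM to 77.6, 84.2 and 81.3, by 1.41 (SE 0.10, adjusted p = 0.0021 by edgeR), and it carried most of the gene's increase in TPM. Smg6-202, which skips exon 9, went from 0.974, 1.34 and 1.24 TPM to 4.80, 5.09 and 6.26, by 2.16 (SE 0.20, adjusted p = 0.0044 by edgeR). The full Smg6-201 went from 3.10, 3.78 and 4.03 TPM to 6.90, 7.25 and 5.77, by 0.82 (SE 0.10, adjusted p = 0.011 by edgeR). The groups did not overlap for any of these 4, as for 32.6% of all transcripts tested. The difference in change between transcripts of 1 gene was not tested.

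The NMD-annotated share of Smg6 TPM was 40.8%, 40.2% and 50.8% in the libraries labelled Upf2 and 21.9%, 23.6% and 22.1% in controls. For Smg5 it was 8.24%, 8.76% and 7.59% against 2.92%, 3.02% and 0.869%. In both genes every library labelled Upf2 was above every control. For Smg1, whose NMD-annotated transcript is Smg1-204, the share was 6.80%, 15.1% and 13.7% against 12.1%, 9.93% and 24.9%, and the groups overlapped.

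The other 3 transcripts called belonged to Smg9 and Upf1. Smg9-201 went from 6.64, 9.30 and 9.03 TPM to 26.3, 31.4 and 31.4 in the libraries labelled Upf2 (log2 fold change 1.81, adjusted p = 0.0029 by edgeR). Upf1-202 went from 14.4, 17.2 and 16.4 TPM to 28.8, 31.9 and 29.4 (0.88, adjusted p = 0.0056), and Upf1-201 from 1.89, 2.99 and 2.13 TPM to 4.70, 4.96 and 5.02 (1.05, adjusted p = 0.023). These 3 are annotated as protein coding and have no NMD-annotated partner among the transcripts named here. Smg1-201 was at 5.34, 4.62 and 3.06 TPM against 1.22, 2.66 and 1.61, with separate groups, and it just missed the threshold (1.21, adjusted p = 0.055), which it passed with DESeq2 (adjusted p = 0.00029).

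**Figure D3:**
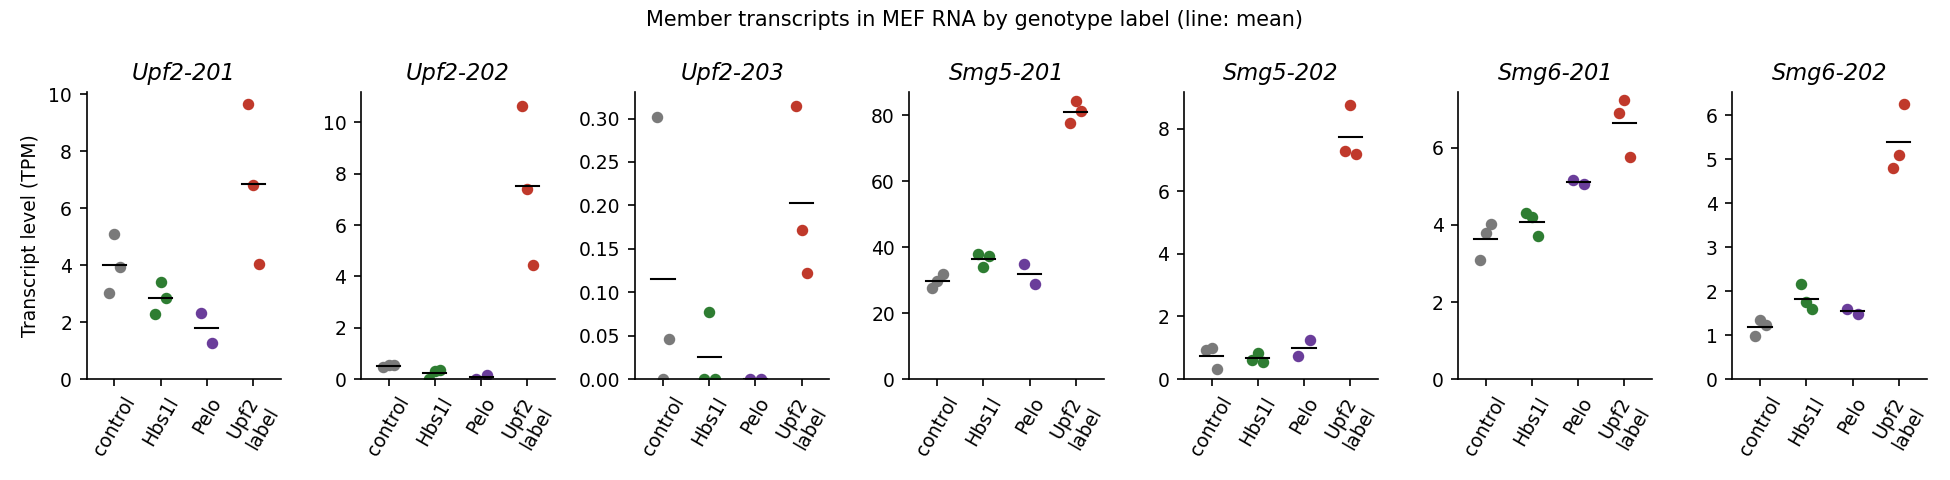
TPM of Upf2, Smg5 and Smg6 transcripts in each MEF RNA library, by genotype label, with lines at the group means. Upf2-202, Smg5-202 and Smg6-202 are higher in all 3 libraries labelled Upf2 than in any other library, while Upf2-201 overlaps the controls.

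The remaining named transcripts were not called. Upf3a-201 was at 28.4, 23.9 and 18.7 TPM in the libraries labelled Upf2 and at 17.4, 19.4 and 21.1 in controls, Upf3b-201 at 7.93, 5.96 and 3.67 against 3.74, 4.12 and 4.54, and Upf3b-202 at 2.50, 1.53 and 0.850 against 0.783, 1.29 and 1.45. Smg8-201 was at 8.40, 10.5 and 8.77 against 9.20, 10.1 and 10.1. Of the lesser transcripts of Smg5, the retained intron Smg5-203 was at 1.16, 2.00 and 1.46 against 1.03, 1.14 and 0.980, and Smg5-205 at 0.903, 2.72 and 2.25 against 0.593, 0.478 and 1.35. None of these 6 passed the test, although the mean of Smg5-205 was more than 2-fold higher.

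Features by which NMD is known to choose normal mRNAs were read from the annotation for the most abundant coding transcript of each gene. The median length of the 3′ untranslated region was 958 bases over the 9 members and 907 over 13607 genes. It was longest in Smg1, at 4233 bases, and shortest in Smg8, at 221 bases, followed by Smg9 at 400 bases. In the libraries labelled Upf2, Smg8 was called in neither footprints nor RNA, Upf3a and Upf3b were not called in RNA, and Smg9 had the largest rise in both. An ATG in the 5′ untranslated region was present in 4 of the 9 (Smg1, Smg5, Smg9 and Upf2), which is 44.4%, and in 49.2% of all genes. Any ATG was counted, without a check of its reading frame or of a stop codon after it. The part of these features in the members' changes was not tested.

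In the Hbs1l cKO MEFs, footprints on 4 of the 9 members rose and none fell, where 34.1% of 11984 genes passed the test and 17.4% passed and were higher. The members' median log2 fold change was 0.19, against -0.01 over all genes. Upf1 was at 259, 246 and 266 CPM against 206, 217 and 194 in controls (log2 fold change 0.32, SE 0.07, adjusted p = 0.0020 by edgeR). Smg1 was at 139, 155 and 144 CPM against 104, 108 and 115 (0.42, SE 0.07, adjusted p = 0.00054). For both genes all mutant libraries were above all controls, as for 23.4% of all genes. Smg6 was at 36.4, 35.9 and 32.1 CPM against 29.3, 25.8 and 28.6 (0.32, adjusted p = 0.022), and Smg9 at 22.3, 23.5 and 21.9 against 18.5, 19 and 15.3 (0.35, adjusted p = 0.031). These last 2 calls were fragile: Smg6 lost its call without mutant replicate 1 or 2 or control replicate 2 (adjusted p up to 0.10), and Smg9 without any 1 library but control replicate 2, and with DESeq2 (adjusted p = 0.068). Upf2, Upf3a, Upf3b, Smg5 and Smg8 overlapped with controls, with log2 fold changes of -0.01 to 0.19.

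Footprints in the Pelo cKO MEFs also rose on 4 members and fell on none, where 44.1% of 12486 genes passed the test and 22.9% passed and were higher. The members' median log2 fold change was 0.17, against 0.00 over all genes. Upf1 was at 248, 257 and 245 CPM against 212, 217 and 192 (log2 fold change 0.27, SE 0.07, adjusted p = 0.0081 by edgeR), and Smg1 at 139, 133 and 135 against 114, 97.7 and 111 (0.34, SE 0.07, adjusted p = 0.0037). Mutant and control libraries did not overlap for either gene, as for 55.4% of all genes. Smg5 was at 38.6, 37.9 and 40.5 CPM against 34.1, 34.3 and 32 (0.22, adjusted p = 0.038), and Smg9 at 22.9, 22.7 and 22.3 against 18.6, 19.8 and 14.9 (0.35, adjusted p = 0.030). Smg5 lost its call when any 1 of the 6 libraries was left out, and with DESeq2 (adjusted p = 0.12). Smg9 lost its call without mutant replicate 1 or 2 or control replicate 1 or 3 (adjusted p up to 0.080) and with DESeq2 (adjusted p = 0.056). Upf2, Upf3a, Upf3b, Smg6 and Smg8 had log2 fold changes of -0.16 to 0.17. Macrophage marker footprints were also higher in both mutants, at 86.5 to 127 CPM in Hbs1l cKO and 152 to 234 in Pelo cKO MEFs against 41.4 to 59.8 in their controls, and fibroblast markers were at 20647 to 28759 against 17589 to 17782. Endothelial markers were lower, at 37.1 to 41.9 CPM in Hbs1l cKO and 23.0 to 30.6 in Pelo cKO MEFs against 67.4 to 81.2 in their controls, and so were neuron markers, at 51.6 to 62.5 and 59.9 to 61.9 against 75.2 to 95.9. Granule cell markers, with up to 2 of 4 at 0, were lower too, at 17.2 to 17.5 and 10.7 to 15.3 against 25.3 to 33.1. In RNA they were higher in Pelo cKO MEFs, at 15.2 to 17.7 against 13.2 to 14.5 CPM, and lower in Hbs1l cKO MEFs, at 8.43 to 11.2. Their part in these results was not tested.

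RNA in Hbs1l cKO MEFs gave log2 fold changes of -0.54 to 0.40 for the members, with 6 of 9 at an unadjusted p under 0.05, where 37.9% of all genes were. Smg9 rose, from 16.7, 19.5 and 19.4 CPM to 26.7, 21.8 and 25 (log2 fold change 0.40, SE 0.12, adjusted p = 0.041 by edgeR), and it was the 1 member called, where 23.1% of 15318 genes passed. Without any 1 of the 6 libraries it was no longer called (adjusted p 0.051 to 0.12). Upf2 was lower without passing the test, at 9.12, 14.4 and 12.7 CPM against 15.6, 21.1 and 16.6 (-0.54, SE 0.18, adjusted p = 0.059), and it passed with DESeq2 (adjusted p = 0.023). Upf3b was at 5.57, 6.56 and 6.41 CPM against 8.10, 7.82 and 8.44 (-0.39, SE 0.13, adjusted p = 0.054). For Upf2 and Upf3b the groups did not overlap, as for 44.3% of all genes. None of the 20 member transcripts tested passed (6 had an unadjusted p under 0.05 by edgeR, where 17.7% of all transcripts did, and DESeq2 called 1, Smg6-202), where 1.31% of 36633 transcripts did.

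In the RNA of the 2 Pelo cKO libraries, 2 members rose and 2 fell, where 32.1% of 14705 genes passed. Upf1 was at 115 and 122 CPM against 77.8, 84.8 and 76.9 in controls (log2 fold change 0.57, SE 0.08, adjusted p = 0.0031 by edgeR). Smg6 was at 30.0 and 32 CPM against 22.8, 25 and 25.6 (0.34, SE 0.10, adjusted p = 0.037), and lost its call when any 1 of the 5 libraries was left out (adjusted p 0.053 to 0.26). Upf2 fell to 8.31 and 5.29 CPM from 15.3, 21.5 and 16.5 (-1.38, SE 0.23, adjusted p = 0.0055), and Upf3b to 3.11 and 2.51 CPM from 7.95, 7.96 and 8.42 (-1.52, SE 0.15, adjusted p = 0.0010). Each of these groups was separate from its controls, as for 62.2% of all genes. Upf2 and Upf3b thus had lower RNA in Pelo cKO MEFs while Upf1 and Smg6 had more. Such changes were not particular to the members. Among related genes, RNA of Abce1 (-1.73) and Pnrc2 (-0.98) fell and that of Casc3 (0.42) and Pabpc1 (0.37) rose (adjusted p up to 0.026 by edgeR). Other values differed as well: the mitochondrial share of the estimated counts was 1.01% to 1.16% in Pelo cKO and 0.654% to 0.940% in Hbs1l cKO MEFs against 1.18% to 1.51% in controls, and the NMD-annotated share was 1.84% to 1.86% and 2.13% to 2.2% against 1.91% to 2.11%. Fibroblast markers summed to 7617 to 7702 CPM of RNA in Pelo cKO and 5603 to 9415 in Hbs1l cKO MEFs against 3497 to 5882, neuron markers to 49.7 to 53.3 and 64.4 to 71.6 against 88.0 to 124, and macrophage markers to 27.0 to 39.0 and 33.8 to 56.7 against 17.3 to 27.5. Of these, the fibroblast sums of Hbs1l cKO and the macrophage sums of Pelo cKO MEFs overlapped with controls. Endothelial markers were lower in Hbs1l cKO MEFs, at 15.3 to 17.1 against 28.0 to 36.8 CPM of RNA. In Pelo cKO MEFs they were at 33.7 to 40.0 CPM of RNA and overlapped with controls, unlike in footprints. Epithelial markers were higher in Pelo cKO MEFs, at 6.39 to 6.78 against 3.05 to 3.85 (in footprints 4.93 to 11.9 against 1.16 to 1.89). The part of these differences in the members' RNA changes was not tested.

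Of 19 member transcripts tested in Pelo cKO MEFs, 1 rose and 1 fell, where 2.37% of 34903 transcripts passed. Upf1-202 rose, from 14.4, 17.2 and 16.4 TPM to 27.2 and 23.5 (0.52, SE 0.07, adjusted p = 0.043 by edgeR), and Upf3b-201 fell, from 3.74, 4.12 and 4.54 TPM to 1.72 and 1.24 (-1.66, SE 0.20, adjusted p = 0.037). Both calls were lost when any 1 library was left out. Upf2-201, at 2.32 and 1.27 TPM, was below its controls without passing the test (-1.33, SE 0.30, adjusted p = 0.094).

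Translation efficiency (TE), the change in footprints relative to the change in RNA, was tested as an interaction of assay and genotype. In Hbs1l cKO MEFs no member passed the test by edgeR or DESeq2, 3 had an unadjusted p under 0.05 (Upf2, Upf3b and Smg1, log2 TE changes of 0.63, 0.59 and 0.67, adjusted p 0.14 to 0.16), where 17.3% of all genes did, and 0.0336% of 11907 genes passed. In Pelo cKO MEFs 2 members passed, where 44.6% of 12143 genes did: TE of Upf2 rose by 1.43 (SE 0.22, adjusted p = 0.00021 by edgeR) and that of Upf3b by 1.38 (SE 0.17, adjusted p = 4.9e-05). These are the members whose RNA fell in Pelo cKO MEFs, while their footprints stayed at 53.7, 51.9 and 53.2 CPM against 51.7, 48.6 and 54.7 for Upf2 and at 15.0, 14.9 and 17.2 against 18.2, 16.8 and 17.8 for Upf3b. In the libraries labelled Upf2, 1 member passed, where 20.3% of 12054 genes did: TE of Smg5 fell by 0.61 (SE 0.14, adjusted p = 0.0066 by edgeR), its RNA having risen more than its footprints. For the other 8 members TE changes lay between -0.31 and 0.31, and for Upf2 the 95% interval of -0.82 to 0.31 was wide. Footprints were counted on coding sequence and RNA over whole transcripts.

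**Figure D4:**
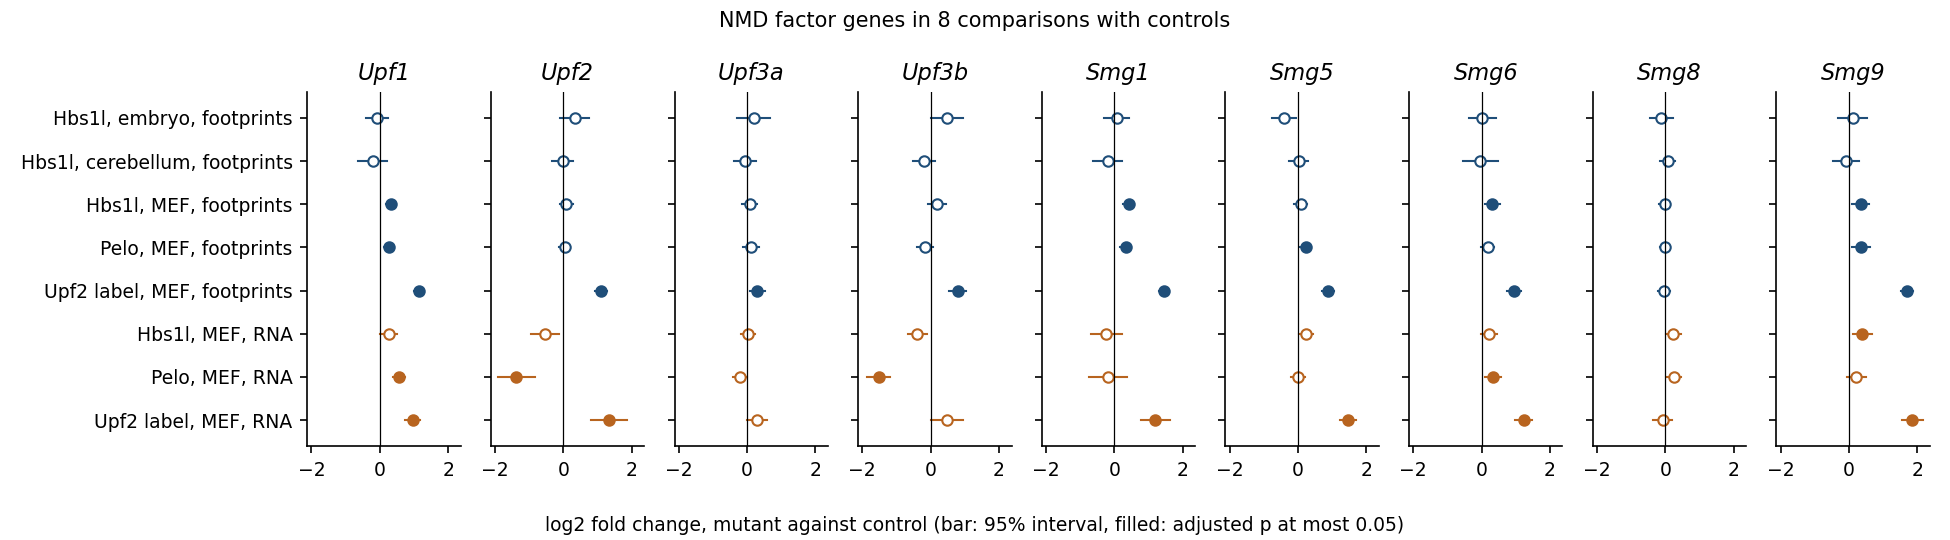
Log2 fold change of each NMD factor gene in 8 comparisons of a mutant with its controls, 5 in footprints and 3 in RNA, with 95% intervals. Filled points passed an adjusted p of 0.05: in the libraries labelled Upf2 they are 8 of 9 in footprints (all but Smg8) and 6 of 9 in RNA (all but Upf3a, Upf3b and Smg8). Of all genes tested in these libraries, 43.4% passed in footprints and 20% in RNA.

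Since the MEF comparisons share controls, the mutants were also set against each other. In RNA, where the libraries of a pair of mutants can be compared directly, 7 members were higher in the libraries labelled Upf2 than in Hbs1l cKO MEFs (27.1% of 16223 genes passed in either direction), by 0.71 for Upf1 to 1.87 for Upf2 on the log2 scale. Upf3a (0.28, adjusted p = 0.12 by edgeR) and Smg8 (-0.30, adjusted p = 0.10) did not pass. Against Pelo cKO MEFs 8 members were higher (28.9% of 15525 genes passed), by 0.37 for Upf1 to 2.67 for Upf2, and Smg8 did not pass (-0.36, adjusted p = 0.074). The call of Upf1 against Pelo cKO MEFs was lost without replicate 2 of the libraries labelled Upf2 and without either Pelo cKO library (adjusted p up to 0.30), and that of Upf3a without replicate 1 or 2 of the former or either of the latter (adjusted p up to 0.26).

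In footprints, the difference between effects was tested as an interaction of pool and genotype. This test counts the control libraries of both pools as separate samples although same-numbered controls were nearly the same, so that its p values and background shares rest on more controls than there are distinct ones. The effect was larger in the libraries labelled Upf2 than in Hbs1l cKO MEFs for 7 members (Upf1, Upf2, Upf3b, Smg1, Smg5, Smg6 and Smg9), by 0.61 for Upf3b to 1.35 for Smg9 on the log2 scale, where 4.93% of 12334 genes passed. It was larger than in Pelo cKO MEFs for the same 7 members, by 0.65 for Smg5 to 1.35 for Smg9, where 13% of 12675 genes passed. Smg8 differed by -0.03 and -0.04, with 95% intervals of -0.25 to 0.18 and -0.25 to 0.17, and Upf3a by 0.23 and 0.18 (adjusted p = 0.34 and 0.45 by edgeR). The call of Upf3b against Hbs1l cKO MEFs was lost without most of the single libraries (adjusted p up to 0.11). Comparing the mutant libraries directly, an alternative chosen after seeing that the controls are nearly the same, called 7 members in each case as well, where 16.3% of 11808 genes and 26.7% of 12385 genes passed.

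In embryos at E8.5, footprints on none of the 9 members passed the test between Hbs1l -/- and wild type, where 1.87% of 11416 genes did. By edgeR 2 members had an unadjusted p under 0.05, where 18.6% of all genes did, and by DESeq2 none passed or had one. Upf3b was at 29.0, 41.0 and 40.3 CPM in Hbs1l -/- and 28.4, 22.3 and 28.3 in wild-type embryos (log2 fold change 0.48, SE 0.22, adjusted p = 0.25 by edgeR), and Smg5 at 46.9, 39.3 and 46.1 against 57.7, 58.3 and 59.1 (-0.40, SE 0.17, adjusted p = 0.22). For these 2 genes the groups did not overlap, as for 23.8% of all genes, and without Hbs1l -/- replicate 1 Upf3b passed (0.64, adjusted p = 0.036). Upf1 was at 290, 265 and 205 CPM against 269, 273 and 261, and Smg1 at 104, 129 and 124 against 93.2, 137 and 107, with overlapping groups. The intervals of the members were wide, reaching from -0.76 (Smg5) to 0.94 (Upf3b). The Hbs1l -/- embryos also differed in 3 trophoblast markers (47.1 to 164 CPM summed against 1.14 to 3.69) 5 markers of the E8.5 embryo (2035 to 4471 against 5749 to 7070 CPM), 4 endothelial (418 to 618 against 350 to 366), 3 epithelial (774 to 914 against 574 to 626) and 6 fibroblast markers (509 to 664 against 715 to 822), whose part in these values was not tested.

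In cerebellum at P14, no member passed between Atoh-Cre;Hbs1l cKO and its controls, none had an unadjusted p under 0.05 by edgeR or DESeq2, and 0.0624% of 14430 genes passed. Upf1 was at 136, 134 and 103 CPM against 162, 159 and 109, Smg1 at 105, 133 and 79.6 against 130, 107 and 126, and Upf2 at 38.0, 34.4 and 33.3 against 40.0, 37.1 and 30.5. The groups overlapped for 8 members, and of all genes 18.3% had groups that did not overlap. Smg8 was at 39.3, 38.3 and 38.8 CPM against 37.0, 35.9 and 38.2 (log2 fold change 0.07, 95% interval -0.16 to 0.30). Log2 fold changes of the members lay between -0.21 and 0.07. These libraries hold footprints of all cells of the cerebellum, and those of granule cells cannot be told apart from the rest. Purkinje cell markers summed to 3525 to 3924 CPM in the mutant against 4636 to 6603, macrophage markers to 120 to 130 against 88.0 to 105, and granule cell markers overlapped (2630 to 3239 against 2411 to 4244), and their part in these values was not tested.

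Whether the effect of Hbs1l loss on footprints differed between embryo, cerebellum and MEFs was tested with both interaction terms together. The loss itself differed: the log2 fold change of Hbs1l footprints was -3.60 in embryos, -4.15 in MEFs and -1.50 in cerebella. Hbs1l passed this test (adjusted p = 0.00027 by edgeR). The extent of the loss cannot be told apart from tissue here. None of the 9 members passed by edgeR, where 7.48% of 15077 genes did, and 3 had an unadjusted p under 0.05 (Upf3b, Smg1 and Smg5, adjusted p 0.14 to 0.17), where 25.1% of all genes did. DESeq2 was not run for this test. Without cerebellum control replicate 3, Upf1 passed (adjusted p = 0.040), and without Hbs1l -/- embryo replicate 1, Upf3b passed (adjusted p = 0.033).

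The partners of the members were read in the libraries labelled Upf2 from fixed lists, beside the background shares given above. Of the other NMD factors reported here, the helicase Dhx34 rose in footprints by 0.46 on the log2 scale (adjusted p = 0.018 by edgeR), Nbas by 0.34 (adjusted p = 0.0026) and Pnrc2 by 0.34 (adjusted p = 0.012). Ruvbl1 (0.01) and Ruvbl2 (0.14) did not pass. In RNA, Dhx34 rose (0.88, adjusted p = 0.0021 by edgeR), and Nbas (-0.11), Pnrc2 (0.16), Ruvbl1 (-0.14) and Ruvbl2 (0.12) did not pass.

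Of 6 genes of the exon junction complex, 2 rose in footprints (Casc3 by 0.50 and Rnps1 by 0.38) and none passed in RNA by edgeR, with 2 at an unadjusted p under 0.05, where 34.8% of all genes were. Of 5 genes of translation termination, Pabpc1, which encodes the cytoplasmic polyA-binding protein, rose by 0.36 in footprints and fell by 0.43 in RNA, and Etf1, Gspt1, Gspt2 and Abce1 did not pass in either. In RNA 4 of the 5 had an unadjusted p under 0.05 by edgeR, where 34.8% of all genes did, and none was higher. Of 3 cap-binding genes (Ncbp1, Ncbp2 and Eif4e) none passed in footprints (2 at an unadjusted p under 0.05 by edgeR, where 51.4% of all genes were) or in RNA (1). Of 14 genes of mRNA decay enzymes and their partners, 9 rose and 1 fell in footprints, with the deadenylase subunit Pan2 (0.61), the exosome nuclease Dis3 (0.58) and the decapping enzyme Dcp2 (0.54) as the largest rises and Cnot8 the fall (-0.28), and 2 rose in RNA (Pan3 by 0.67 and Edc3 by 0.45). The medians of these 4 lists lay between 0.01 and 0.27 in footprints and between -0.38 and 0.17 in RNA.

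The genes whose RNA followed Upf2 most closely over the 11 MEF RNA libraries, by Pearson's r of log2 CPM among 9912 genes with a mean of at least 5 CPM, were Ttc14 (0.990), Pcnp (0.983) and Spopl (0.983). Those closest to Smg5 were Fbxw17 (0.997), Atpaf2 (0.996) and Trappc5 (0.996). These values describe 11 libraries that fall into 4 genotype groups, so that the points are not independent.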

How the data were processed

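Footprints: the authors deposited whole-number read counts per gene on coding sequences, made with Bowtie2 2.2.3 to remove ribosomal RNA, HISAT2 2.1.0 to map to mm10 and featureCounts. For RNA, per transcript, kallisto 0.42.4 gave the estimated counts and the length-scaled TPM that the authors deposited. Every column belonged to a labelled sample. Estimated counts were rounded and, for genes, summed.

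Each comparison was fitted with edgeR 4.0.16 in R 4.3.3 on its own libraries: default filter on low counts, TMM factors, quasi-likelihood test, Benjamini-Hochberg adjustment over all features, threshold 0.05. Histone genes were left out of footprint and TE tests. CPM of single genes are scaled with the TMM factors of their own comparison, so that control values differ slightly between comparisons, whereas CPM per kilobase, marker sums and the likeness of genes use library totals alone. All 45 member transcripts matched Gencode M21 in identifier and length (tables: Python 3.11.15). The fits were tested on simulated data.

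Members and lists were chosen with earlier results of these data known. Named were all members, the targeted genes, each Upf2 transcript and other member transcripts with a mean of at least 1 TPM, list genes past the threshold in the libraries labelled Upf2 (up to 3 each way; the other NMD factors in full, apart from 1 that is not reported here), and the 3 genes most like Upf2 or Smg5. Alternatives were RLE factors, no filter, a replicate block, leaving out each library, DESeq2 1.42.0, protein-coding transcripts only, all 11 RNA libraries in 1 fit and, for transcripts, limma 3.58.1 on log2(TPM + 0.5).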

Additional observations from a re-analysis of the deposited data

How the results depend on the processing

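The embryo libraries had the lowest median total, although their range overlapped that of MEF footprints. How far depth limits each comparison was not tested. RLE factors changed no direction and no count of members by over 1.5 times. Leaving out 1 library in turn gave 0 to 1 members called in embryo footprints and in the test between tissues, 2 to 3 in the footprints of Hbs1l cKO and of Pelo cKO MEFs, 0 in the RNA of Hbs1l cKO MEFs, 0 transcripts in the RNA of Pelo cKO MEFs and 5 to 7 transcripts in the libraries labelled Upf2. DESeq2 called 2 members in the footprints of Pelo cKO MEFs. In the RNA of Hbs1l cKO MEFs, 2 members were called without a filter, with DESeq2 and with protein-coding transcripts only, and DESeq2 called 1 transcript. In the RNA of Pelo cKO MEFs, 1 transcript was called without a filter and 0 with limma. The cause of these differences was not tested.

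Same-numbered samples were not paired by the labels. Where genes were compared between groups of the same assay, their deviations correlated by over 0.1 for every pair in no comparison. Pairing between footprint and RNA libraries, which would matter for TE, was not examined. With the replicate block, 1 member was called in TE of Hbs1l cKO MEFs, 0 transcripts in Pelo cKO MEFs and 2 transcripts in the libraries labelled Upf2 (Smg5-201 and Smg9-201).

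Directions that turned belonged to values that were small or had wide errors. Smg5 in the RNA of Pelo cKO MEFs was at -0.029 without a filter, -0.0073 with protein-coding transcripts and -0.011 in the fit of all 11 libraries. In TE of the libraries labelled Upf2, Upf3a was at 0.0015 with DESeq2, Smg6 at 0.016 and Smg8 at -0.018 with protein-coding transcripts. In Pelo cKO MEFs, Smg5-201 was at 0.097 with limma and Smg5-202 at -0.23 with the replicate block.

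Leaving out 1 library turned these directions, given as the range of log2 fold changes. In embryos Smg1 ranged from -0.038 to 0.24, Smg6 from -0.12 to 0.12 and Upf1 from -0.18 to 0.055. In cerebella Smg5 ranged from -0.046 to 0.11, Smg6 from -0.24 to 0.16, Smg9 from -0.22 to 0.038, Upf2 from -0.13 to 0.058 and Upf3a from -0.13 to 0.056. In MEF footprints Smg8 ranged from -0.029 to 0.0040 in Hbs1l cKO, from -0.027 to 0.033 in Pelo cKO and from -0.10 to 0.024 in the libraries labelled Upf2, from -0.092 to 0.036 against the Hbs1l cKO effect and from -0.096 to 0.033 against the Pelo cKO effect, and Upf2 from -0.0093 to 0.078 in Pelo cKO. In RNA Smg1 ranged from -0.38 to 0.054 and Smg5 from -0.070 to 0.070 in Pelo cKO, Upf3a from -0.021 to 0.050 in Hbs1l cKO, and Smg8 from -0.11 to 0.018 in the libraries labelled Upf2. Of transcripts, Smg5-201 ranged from -0.11 to 0.046 and Smg5-202 from -0.30 to 0.61 in Pelo cKO, and Smg5-202 from -0.60 to 0.059 in Hbs1l cKO. In TE, Smg9 ranged from -0.11 to 0.040 in Hbs1l cKO, and in the libraries labelled Upf2 Smg1 ranged from -0.0058 to 0.37, Smg8 from -0.078 to 0.077, Upf2 from -0.47 to 0.049 and Upf3a from -0.10 to 0.10.

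Counts over all features moved by over 1.5 times as follows. Leaving out 1 library gave 28 to 2309 genes in embryos (214 with all), 0 to 560 in cerebella (9), 642 to 2798 between tissues (1128), 1817 to 2185, 1506 to 1743 and 1800 to 1995 in the RNA of Hbs1l cKO, Pelo cKO and the libraries labelled Upf2 (3542, 4727 and 3194), as few as 2685 and 1460 between RNA of these libraries and of Hbs1l and Pelo cKO (4403 and 4482), as few as 353 and 1097 for the same effects in footprints (608 and 1648), 0 to 67 for TE in Hbs1l cKO (4), as few as 1507 for TE in the libraries labelled Upf2 (2446), 0 transcripts in Hbs1l and Pelo cKO (481 and 826) and as few as 567 in the libraries labelled Upf2 (2175). With no filter the counts were 703 in embryos, 16 in cerebella, 22 for TE in Hbs1l cKO and 265 transcripts in Hbs1l cKO. With DESeq2 they were 415 in embryos, 476 in cerebella, 340 for TE in Hbs1l cKO, and 3498, 4137 and 5467 transcripts in Hbs1l cKO, Pelo cKO and the libraries labelled Upf2. With the replicate block they were 564, 0, 71, 2955 for Pelo cKO RNA, 394 for the footprint effect against Hbs1l cKO, and 0, 0 and 112 transcripts. The fit of all 11 libraries gave 1494, 1750 and 3418 transcripts, limma 82, 0 and 3277, and protein-coding transcripts 1 gene for TE in Hbs1l cKO. Mutants compared directly gave 1928 and 3303 genes. The median of all genes shifted to -0.16 (no filter) and -0.12 (DESeq2) in Pelo cKO RNA.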
